A study of Homo sapiens with 12 samples.

Results

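The HOX cluster genes comprise the 39 protein-coding genes whose GENCODE v44 symbol is HOXA, HOXB, HOXC or HOXD followed by a number. They were selected by name alone, from 39099 genes that could be assigned to the transcript table. The table held at least 1 transcript of 38 of them, HOXD13 was not analysed here, and 27 passed the filter on low values, which asked for at least 1 TPM (an abundance scaled to transcript length and library total) in at least 2 libraries. Those 27 were 9 HOXA, 9 HOXB and 9 HOXC genes. Cells of the pancreatic cancer lines AsPC-1 (ASPC1 in the labels) and PANC-1 (PANC1) served as mock controls or overexpressed TAp63 or deltaNp63. TP63 encodes the epithelial transcription factor p63, whose long TAp63 forms carry a transactivation domain that deltaNp63 forms lack. All 6 groups had 2 libraries labelled as biological replicates, 12 libraries in all. How the constructs were delivered, and whether the cells were pools or clones, is not given in the sources used here. The 2 mock libraries of a line served as control for both of its constructs.

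HOX genes encode homeodomain transcription factors that give cells a position along the body axis. In each cluster, the genes with low numbers lie at one end and act at anterior levels, and those with high numbers lie at the other end and act at posterior levels. Genes with the same number in different clusters are paralogs and share much of their homeodomain. Retinoic acid switches on the low-numbered end, Polycomb complexes hold silent clusters closed, MLL (trithorax) complexes keep active genes on, and PBX and MEIS proteins bind DNA together with HOX proteins. Adult epithelia and tumours derived from them often keep an inherited HOX pattern.

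TP63 measured 0.817 and 1.10 TPM in AsPC-1 mock and 0.0245 and 0.119 in PANC-1 mock, against 102 to 350.4 in the 4 overexpressing AsPC-1 libraries and 324 to 1187 in the 4 overexpressing PANC-1 libraries. Read depth is not given in the sources used here, and TPM does not keep it. Replicates of a group differed by a median of 0.092 to 0.211 log2 units per gene, and the AsPC-1 deltaNp63 replicates differed most. Epithelial markers were present in both lines, with all 6 of the list at or above 1 TPM in all 12 libraries, while endocrine markers summed to at most 0.471 TPM and acinar markers to at most 1.23. Leukocyte markers summed to 199 to 288 TPM, carried by CD68 and, in AsPC-1, LYZ, while PTPRC and CD3E stayed at or below 0.0552 TPM. Among fibroblast markers LUM reached 177 to 288 TPM in AsPC-1 and COL1A1 80.8 to 111 in PANC-1, with the other 4 below 1 TPM in each line. Their part in the results was not tested. In bulk RNA of this kind, fewer cells of a type and less RNA per cell cannot be told apart.

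Which HOX genes did these pancreatic cancer cells express? At 1 TPM or more in all 6 libraries of a line, AsPC-1 had 18 of the 38 genes and PANC-1 had 21. At 10 TPM or more in all 6, AsPC-1 had 5 and PANC-1 had 13. The HOXB cluster carried most of the signal, with 59.7% of the summed HOX TPM in AsPC-1 mock and 62.8% in PANC-1 mock. HOXC followed with 22.2% and 32.6%, HOXA with 18.0% and 4.14%, and HOXD with 0.00529% and 0.392%. HOXB7 was the most abundant member in both lines, at 42.2 ± 5.60 TPM (SD, n = 2) in AsPC-1 mock and 124 ± 10.3 in PANC-1 mock. After it came HOXB6, HOXB2, HOXC10 and HOXA3 in AsPC-1 mock, and HOXC10, HOXB6, HOXC9 and HOXB9 in PANC-1 mock. In AsPC-1 mock the replicates of HOXB7 and HOXB6 overlapped in level (38.3 and 46.2 against 37.6 and 39.8 TPM), so their order is not fixed. In PANC-1 mock, HOXC10 and HOXB6 did not overlap, while HOXC9 and HOXB9 did. HOXB1 was listed at 0 in all 12 libraries.

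**Figure D1:**
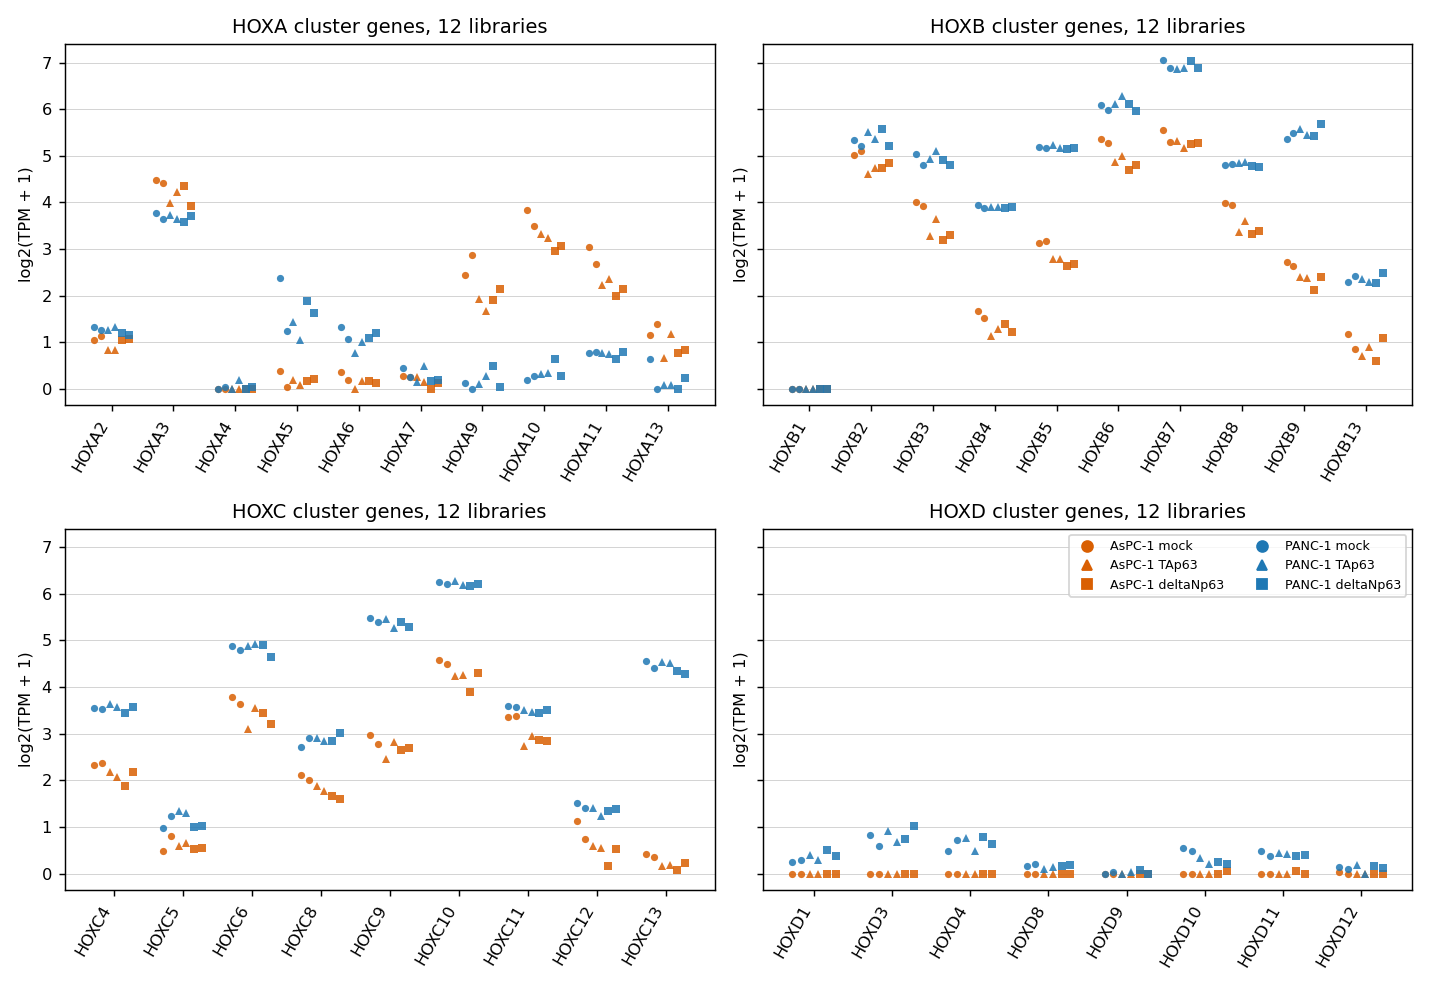
Level of the HOX genes named in the text as log2(TPM + 1), by cluster and in order of gene number, with 1 point per library (orange AsPC-1, blue PANC-1; circles mock, triangles TAp63, squares deltaNp63). PANC-1 libraries lie above AsPC-1 libraries for 9 of 10 HOXB and 9 of 9 HOXC genes, HOXA9 to HOXA13 lie higher in AsPC-1, and HOXD genes stay at or below 1.02 TPM.

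PANC-1 and AsPC-1 mock cells differed in most HOX genes. On log2(TPM + 1), 24 of the 27 tested HOX genes passed an adjusted p of 0.05, 19 higher and 5 lower in PANC-1. The lines differ widely in all genes: 72.5% of the 14767 tested genes passed, 44.6% higher and 27.9% lower. In what follows, differences are on log2(TPM + 1), PANC-1 minus AsPC-1 or construct minus mock, with their SE after ±. The median difference was 0.92 log2 units for the HOX genes and 0.24 for all tested genes. With a difference of at least 1 log2 unit as a further condition, 15 of 27 HOX genes (55.6%) passed, against 38.2% of all tested genes. The 5 genes that were lower in PANC-1 were all in HOXA. Across all 3 constructs, every PANC-1 library lay above every AsPC-1 library for 22 of the 27 (81.5%, against 45.0% of all tested genes) and below for the other 5 (18.5%, against 25.3%). The construct arms gave 27 calls of 27 for TAp63 (22 higher, 5 lower; background 74.9%, with 48.2% higher and 26.7% lower) and 26 of 27 for deltaNp63 (21 higher, 5 lower; background 75.7%, with 49.2% higher and 26.5% lower), again with HOXA3, HOXA9, HOXA10, HOXA11 and HOXA13 as the lower genes.

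**Figure D2:**
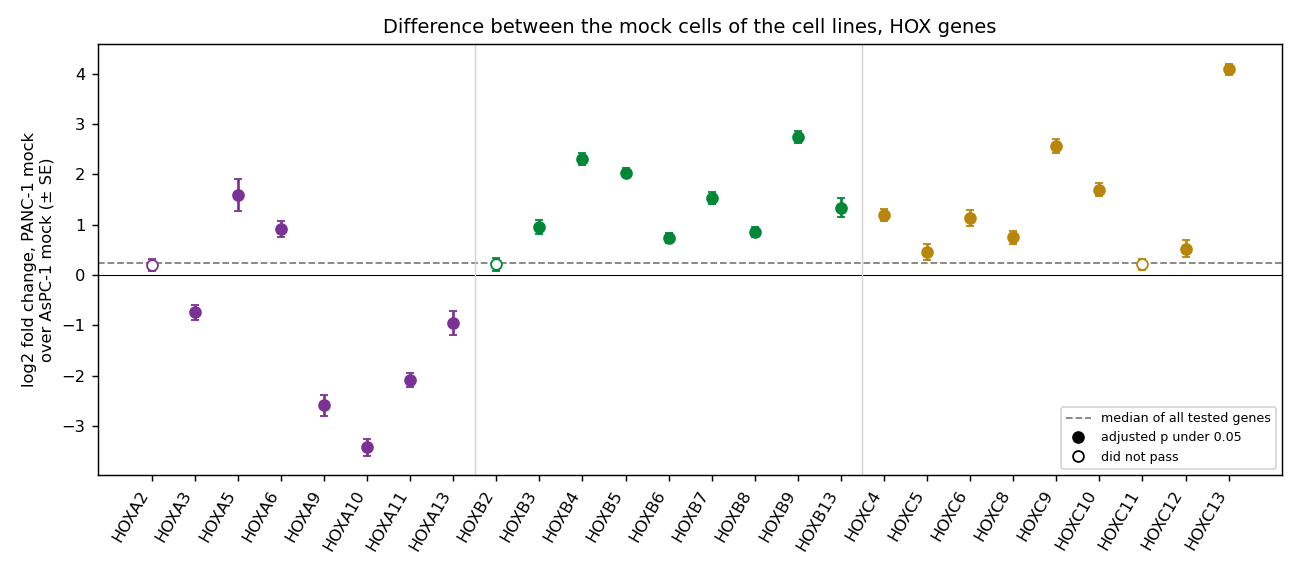
Log2 fold change of PANC-1 mock over AsPC-1 mock with its SE for 26 tested HOX genes, ordered by cluster and number; filled points passed an adjusted p of 0.05 and the dashed line is the median of all tested genes, 0.24. HOXA genes fall on both sides of 0, and the 18 HOXB and HOXC genes all lie above it.

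Within HOXA (chromosome 7, minus strand; all coordinates hg38), 5 of 9 tested genes were lower in PANC-1 mock. The high-numbered end, HOXA9 to HOXA13, was present in AsPC-1 and stayed below 1 TPM in PANC-1. For HOXA10 (chr7:27170605-27180261), known from uterus and limb development, AsPC-1 libraries measured 13.3 and 10.2 TPM in mock, 8.98 and 8.44 with TAp63 and 6.72 and 7.42 with deltaNp63, and PANC-1 libraries 0.137 and 0.213, 0.239 and 0.270 and 0.554 and 0.205 in the same order. HOXA9 (chr7:27162438-27175180), a regulator of blood stem cells, measured 4.43 and 6.28 TPM in AsPC-1 mock, 2.83 and 2.17 with TAp63 and 2.74 and 3.38 with deltaNp63, against 0.0835 and 0 TPM in PANC-1 mock, 0.0711 and 0.205 with TAp63 and 0.411 and 0.0303 with deltaNp63. The lowest AsPC-1 library was above the highest PANC-1 library for both genes, and the differences were -3.43 ± 0.16 with adjusted p = 2.57e-08 for HOXA10 and -2.59 ± 0.20 with adjusted p = 1.31e-06 for HOXA9.

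HOXA11 (chr7:27181157-27185232), which acts in kidney and forearm development, measured 7.20 and 5.42 TPM in AsPC-1 mock, 3.72 and 4.12 with TAp63 and 2.95 and 3.41 with deltaNp63, against 0.692 and 0.722 TPM in PANC-1 mock, 0.706 and 0.677 with TAp63 and 0.557 and 0.740 with deltaNp63. It differed by -2.09 ± 0.15 (adjusted p = 5.73e-07), with an 8.92-fold higher mean level in AsPC-1 mock. HOXA13 (chr7:27193503-27200091), a gene of digits and the hindgut, was lower in PANC-1 (-0.96 ± 0.24, adjusted p = 0.00420). Its AsPC-1 libraries measured 1.23 and 1.63 TPM in mock, 0.572 and 1.25 with TAp63 and 0.702 and 0.792 with deltaNp63, and PANC-1 libraries 0.554 and 0, 0.0651 and 0.0639 and 0 and 0.184 in the same order. Here the lines nearly met, with 0.572 TPM as the lowest AsPC-1 value and 0.554 as the highest in PANC-1, and the only HOXA13 transcript in the table has no defined coding sequence.

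Toward the low-numbered end, HOXA3 and HOXA2 differed less between the lines. HOXA3 (chr7:27106184-27152583), needed for thymus and parathyroid, was the most abundant HOXA gene in both lines. For HOXA3, AsPC-1 libraries measured 21.4 and 20.4 TPM in mock, 14.8 and 17.6 with TAp63 and 19.4 and 14.1 with deltaNp63, and PANC-1 libraries 12.6 and 11.6, 12.3 and 11.5 and 10.999 and 12.1 in the same order, a difference of -0.74 ± 0.15 (adjusted p = 0.00110). HOXA2 (chr7:27100354-27102686), a gene of the pharyngeal arches, was near 1 TPM throughout: AsPC-1 libraries measured 1.06 and 1.20 TPM in mock, 0.783 and 0.790 with TAp63 and 1.07 and 1.11 with deltaNp63, and PANC-1 libraries 1.504 and 1.39, 1.40 and 1.51 and 1.30 and 1.24 in the same order. Its difference of 0.20 ± 0.12 did not pass (adjusted p = 0.152, 95% interval -0.06 to 0.46) and was -0.07 after quantile normalization.

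HOXA5 (chr7:27141052-27143681), which acts in lung development, had the largest SE of the tested members. Its AsPC-1 libraries measured 0.310 and 0.0265 TPM in mock, 0.135 and 0.0532 with TAp63 and 0.126 and 0.152 with deltaNp63, and PANC-1 libraries 4.19 and 1.36, 1.70 and 1.07 and 2.72 and 2.11 in the same order. PANC-1 mock replicate 1 stood well above replicate 2, and the difference between the lines was 1.59 ± 0.31 (adjusted p = 0.00103). HOXA6 (chr7:27145396-27150603) stayed near 1 TPM in PANC-1 and below that in AsPC-1: AsPC-1 libraries measured 0.284 and 0.146 TPM in mock, 0 and 0.126 with TAp63 and 0.118 and 0.0936 with deltaNp63, and PANC-1 libraries 1.51 and 1.10, 0.709 and 1.01 and 1.12 and 1.31 in the same order. It differed by 0.92 ± 0.16 (adjusted p = 0.000396). HOXA4 and HOXA7 did not pass the filter. HOXA4 was listed at 0 in all AsPC-1 libraries and reached 0.136 TPM in PANC-1, and HOXA7 ranged from 0 to 0.413 over the 12 libraries.

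The RefSeq promoter windows of the HOXA genes that were lower than 1 TPM in PANC-1 and higher in AsPC-1 are shown here, because these neighbours differed together, followed by windows of genes that were higher in PANC-1. Each window spans 250 bases before to 50 after a RefSeq start on GRCh38.p14, is read 5′ to 3′ on the gene's strand, and has its CpG dinucleotides in capitals. HOXA10 has a pair of RefSeq starts.
HOXA9 (chr7:27165488-27165787, minus strand): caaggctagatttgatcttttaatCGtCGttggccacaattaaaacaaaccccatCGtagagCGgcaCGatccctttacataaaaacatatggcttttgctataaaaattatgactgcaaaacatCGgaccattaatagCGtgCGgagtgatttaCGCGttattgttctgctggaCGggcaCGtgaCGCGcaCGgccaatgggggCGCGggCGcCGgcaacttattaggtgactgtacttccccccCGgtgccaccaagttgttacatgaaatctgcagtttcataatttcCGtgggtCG
HOXA10, downstream start (chr7:27174271-27174570, minus strand): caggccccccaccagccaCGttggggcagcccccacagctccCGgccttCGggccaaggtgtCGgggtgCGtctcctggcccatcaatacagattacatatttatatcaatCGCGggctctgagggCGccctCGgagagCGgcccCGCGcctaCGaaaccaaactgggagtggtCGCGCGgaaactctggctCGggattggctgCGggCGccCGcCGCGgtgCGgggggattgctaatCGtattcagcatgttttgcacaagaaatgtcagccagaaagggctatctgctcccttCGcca
HOXA10, upstream start (chr7:27179812-27180111, minus strand): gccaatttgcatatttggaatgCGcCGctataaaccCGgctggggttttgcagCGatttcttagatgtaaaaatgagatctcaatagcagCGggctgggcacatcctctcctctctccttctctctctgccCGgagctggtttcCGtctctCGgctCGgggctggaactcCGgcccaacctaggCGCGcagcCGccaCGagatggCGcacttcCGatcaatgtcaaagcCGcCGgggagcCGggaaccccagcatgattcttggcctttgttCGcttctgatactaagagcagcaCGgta
HOXA11 (chr7:27185183-27185482, minus strand): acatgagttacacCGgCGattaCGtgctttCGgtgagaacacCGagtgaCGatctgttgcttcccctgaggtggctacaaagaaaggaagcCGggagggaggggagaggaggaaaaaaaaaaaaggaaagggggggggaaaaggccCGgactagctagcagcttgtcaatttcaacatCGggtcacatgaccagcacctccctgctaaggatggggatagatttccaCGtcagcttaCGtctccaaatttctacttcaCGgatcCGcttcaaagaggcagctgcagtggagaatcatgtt
HOXA13 (chr7:27200042-27200341, minus strand): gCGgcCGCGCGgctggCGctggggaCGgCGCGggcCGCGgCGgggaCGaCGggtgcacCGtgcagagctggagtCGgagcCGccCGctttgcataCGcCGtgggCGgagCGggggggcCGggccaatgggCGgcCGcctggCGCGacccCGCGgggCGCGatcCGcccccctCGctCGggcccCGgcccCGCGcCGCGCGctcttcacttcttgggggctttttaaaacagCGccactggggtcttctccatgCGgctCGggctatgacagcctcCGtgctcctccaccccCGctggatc
HOXC4 and HOXC5, shared start (chr12:54016638-54016937, plus strand): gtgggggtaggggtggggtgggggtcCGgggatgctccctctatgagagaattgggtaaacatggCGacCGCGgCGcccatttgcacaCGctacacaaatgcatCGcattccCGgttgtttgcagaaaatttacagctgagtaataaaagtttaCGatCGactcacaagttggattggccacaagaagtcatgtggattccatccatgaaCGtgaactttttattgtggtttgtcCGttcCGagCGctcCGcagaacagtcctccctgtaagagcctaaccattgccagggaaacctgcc
HOXD4 (chr2:176151300-176151599, plus strand): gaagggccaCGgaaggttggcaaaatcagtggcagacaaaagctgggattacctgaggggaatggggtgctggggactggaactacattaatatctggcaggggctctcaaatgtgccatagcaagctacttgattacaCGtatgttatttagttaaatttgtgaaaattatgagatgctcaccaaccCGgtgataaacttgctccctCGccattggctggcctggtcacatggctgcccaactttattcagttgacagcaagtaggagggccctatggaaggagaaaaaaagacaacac

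These windows hold 22 CpG for HOXA9, 25 and 21 for the HOXA10 starts, 13 for HOXA11 and 44 for HOXA13, against a median of 14 over 34943 promoter windows of the same length. HOXC4 and HOXC5 share a window with 15 CpG and were higher in PANC-1. HOXD4, listed at 0 in AsPC-1, has 4, and 24.6% of all windows have fewer. The only HOXC5 transcript measured starts at 54033050, downstream of the shared window. HOXC4-202, with 46.6% of HOXC4 TPM in AsPC-1 and 54.4% in PANC-1, starts at 54053835. The only HOXA13 transcript measured starts at 27195600, downstream of its window. The levels of these transcripts cannot be assigned to the printed windows. RefSeq windows were matched for 20 of the 39 HOX genes, as 26 distinct windows with 0 to 44 CpG and a median of 22.5. The letters TATAAA, searched on either strand, were found in 5 of the 26 (19.2%, against 11.6% of all windows), including the HOXA9 window and both HOXA10 windows. TGATTNAT, a form of the composite site bound by PBX and HOX proteins, also searched on either strand, was found in 2 (7.69%, against 2.82%), those of HOXA2 and HOXD11. Such matches describe the letters only. DNA methylation and protein binding were not measured in these libraries.

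Transcript rows divide HOXA10 between its starts. Over the 6 AsPC-1 libraries, 45.8% of HOXA10 TPM was on HOXA10-202, which starts at position 27180261, upstream of both windows, 32.9% on HOXA10-201, whose start at 27174320 is that of the downstream window, and 19.0% on HOXA10-205, which starts at 27172963 and has no defined coding sequence. These shares varied between libraries, from 34.0% to 55.6% for HOXA10-202 and from 23.3% to 47.3% for HOXA10-201. HOXA9 was assigned mostly to transcripts without a defined coding sequence, which took 89.8% of its AsPC-1 level. The 3 with the largest shares start between 27169444 and 27170498, between the HOXA9 window and HOXA10.

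All 9 tested HOXB genes (chromosome 17, minus strand) had a higher mean in PANC-1 mock, and 8 passed. HOXB9 (chr17:48621156-48626358), a gene of thoracic identity, had the largest difference, 2.75 ± 0.12 (adjusted p = 1.87e-08), a 7.78-fold higher mean level. Its AsPC-1 libraries measured 5.57 and 5.22 TPM in mock, 4.29 and 4.17 with TAp63 and 3.38 and 4.26 with deltaNp63, and PANC-1 libraries 40.3 and 43.7, 46.7 and 42.7 and 42.2 and 49.95 in the same order. HOXB4 (chr17:48575507-48578350), used to expand blood stem cells, differed by 2.31 ± 0.12, and HOXB5 (chr17:48591257-48593779), which acts in enteric nervous system development, by 2.03 ± 0.09. HOXB4 measured 2.20 and 1.86 TPM in AsPC-1 mock, 1.19 and 1.43 with TAp63 and 1.63 and 1.32 with deltaNp63, against 14.3 and 13.7 TPM in PANC-1 mock, 13.9 and 13.8 with TAp63 and 13.7 and 14.0 with deltaNp63. HOXB5 measured 7.70 and 7.95 TPM in AsPC-1 mock, 5.85 and 5.94 with TAp63 and 5.19 and 5.39 with deltaNp63, against 35.3 and 35.0 TPM in PANC-1 mock, 36.4 and 34.7 with TAp63 and 34.2 and 34.9 with deltaNp63. In both genes the libraries of each line lay close together and the lines were far from overlapping.

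HOXB7 (chr17:48607232-48633572), often studied in carcinomas, was the highest HOX gene of all. For HOXB7, AsPC-1 libraries measured 46.2 and 38.3 TPM in mock, 39.1 and 34.7 with TAp63 and 37.2 and 37.8 with deltaNp63, and PANC-1 libraries 131 and 116, 115 and 117 and 130.5 and 117 in the same order. It differed by 1.53 ± 0.11 (adjusted p = 7.09e-07). HOXB13 (chr17:48724763-48728750), a gene of prostate and hindgut epithelium that lies apart from the rest of the cluster, was low in both lines. It measured 1.25 and 0.806 TPM in AsPC-1 mock, 0.641 and 0.868 with TAp63 and 0.515 and 1.12 with deltaNp63, against 3.89 and 4.32 TPM in PANC-1 mock, 4.16 and 3.92 with TAp63 and 3.80 and 4.56 with deltaNp63, a difference of 1.34 ± 0.18 (adjusted p = 8.58e-05).

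HOXB3 (chr17:48548870-48604912), HOXB6 (chr17:48595751-48604992) and HOXB8 (chr17:48611377-48615292) differed less, by 0.96, 0.73 and 0.85 log2 units, with adjusted p of 0.000116, 7.84e-05 and 2.56e-05. HOXB3 measured 31.9 and 27.001 TPM in PANC-1 mock, 29.4 and 33.2 with TAp63 and 29.2 and 27.1 with deltaNp63, HOXB6 67.4 and 62.1 TPM in PANC-1 mock, 68.5 and 77.3 with TAp63 and 67.8 and 61.4 with deltaNp63, and HOXB8 26.9 and 27.4 TPM in PANC-1 mock, 27.6 and 28.2 with TAp63 and 26.3 and 26.0 with deltaNp63. Their AsPC-1 values are given below with the constructs. HOXB2 (chr17:48540894-48545109), a hindbrain gene, had the smallest HOXB difference between the mock cells, though every PANC-1 library lay above every AsPC-1 library. Its AsPC-1 libraries measured 31.3 and 33.2 TPM in mock, 23.3 and 25.7 with TAp63 and 25.6 and 27.8 with deltaNp63, and PANC-1 libraries 39.3 and 36.2, 44.5 and 39.9 and 46.9 and 35.7 in the same order. The difference of 0.22 ± 0.13 between mock cells did not pass (limma adjusted p = 0.152, 95% interval -0.07 to 0.51). Over protein-coding transcripts only it was 0.52, with adjusted p = 0.000814. In the construct arms all 9 tested HOXB genes passed, HOXB2 among them, with differences of at least 0.76 for TAp63 and 0.60 for deltaNp63.

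All 9 HOXC genes (chromosome 12, plus strand) had a higher mean in PANC-1 mock as well, and 8 passed. HOXC13 (chr12:53938831-53946544), which controls keratin genes of hair and nail, had the largest difference of any HOX gene, 4.09 ± 0.11 (adjusted p = 5.24e-10). Its AsPC-1 libraries measured 0.343 and 0.276 TPM in mock, 0.124 and 0.139 with TAp63 and 0.0494 and 0.165 with deltaNp63, and PANC-1 libraries 22.6 and 20.2, 22.3 and 21.8 and 19.3 and 18.6 in the same order. By mock means this is 69.0-fold. Its neighbours HOXC12 (chr12:53954903-53958956) and HOXC11 (chr12:53973126-53977643) differed by only 0.52 and 0.21 log2 units, with adjusted p of 0.0193 and 0.0892, so HOXC11 did not pass (95% interval -0.02 to 0.45). HOXC12 measured 1.17 and 0.678 TPM in AsPC-1 mock, 0.517 and 0.458 with TAp63 and 0.118 and 0.449 with deltaNp63, against 1.84 and 1.65 TPM in PANC-1 mock, 1.64 and 1.35 with TAp63 and 1.53 and 1.60 with deltaNp63. Its call was lost with a pseudocount of 0.1 (0.89, adjusted p = 0.0794), after quantile normalization (0.23, adjusted p = 0.249) and after median centring (0.35, adjusted p = 0.0767). It was also lost without AsPC-1 mock replicate 2 (0.34, adjusted p = 0.157) and without PANC-1 mock replicate 1 (0.48, adjusted p = 0.0813).

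HOXC9 (chr12:53994895-54003337) and HOXC10 (chr12:53985065-53990279), genes of thoracic and lumbar motor neuron identity, differed by 2.57 ± 0.14 and 1.70 ± 0.12. For HOXC9, AsPC-1 libraries measured 6.84 and 5.81 TPM in mock, 4.46 and 6.08 with TAp63 and 5.27 and 5.43 with deltaNp63, and PANC-1 libraries 43.6 and 41.1, 43.2 and 37.8 and 40.9 and 38.3 in the same order. For HOXC10, AsPC-1 libraries measured 22.8 and 21.6 TPM in mock, 17.8 and 18.2 with TAp63 and 13.8 and 18.7 with deltaNp63, and PANC-1 libraries 75.7 and 73.2, 76.1 and 72.4 and 71.3 and 73.0 in the same order. Every PANC-1 library lay far above every AsPC-1 library in both genes. HOXC4 (chr12:54016931-54056030), HOXC6 (chr12:53990624-54030823) and HOXC8 (chr12:54008985-54012769) differed by 1.19, 1.13 and 0.75 log2 units (adjusted p = 1.05e-05, 0.000104 and 0.000296). HOXC4 measured 3.99 and 4.16 TPM in AsPC-1 mock, 3.54 and 3.17 with TAp63 and 2.69 and 3.55 with deltaNp63, against 10.7 and 10.6 TPM in PANC-1 mock, 11.5 and 10.9 with TAp63 and 9.93 and 10.9 with deltaNp63. HOXC6 measured 12.8 and 11.4 TPM in AsPC-1 mock, 7.58 and 10.7 with TAp63 and 9.91 and 8.19 with deltaNp63, against 28.5 and 26.7 TPM in PANC-1 mock, 28.4 and 29.3 with TAp63 and 29.0 and 24.1 with deltaNp63. HOXC8 measured 3.35 and 3.02 TPM in AsPC-1 mock, 2.67 and 2.44 with TAp63 and 2.19 and 2.02 with deltaNp63, against 5.60 and 6.50 TPM in PANC-1 mock, 6.53 and 6.13 with TAp63 and 6.12 and 7.07 with deltaNp63. None of the 3 overlapped between the lines. HOXC5 (chr12:54033050-54035361) was low in both, with 0.393 and 0.746 TPM in AsPC-1 mock, 0.516 and 0.580 with TAp63 and 0.435 and 0.461 with deltaNp63, against 0.959 and 1.35 TPM in PANC-1 mock, 1.55 and 1.46 with TAp63 and 0.987 and 1.01 with deltaNp63, and differed by 0.46 ± 0.15 (adjusted p = 0.0196). The HOXC5 call was lost after quantile normalization (0.13, adjusted p = 0.476), after median centring (0.29, adjusted p = 0.123) and in the fit on the compared groups alone (0.46, adjusted p = 0.0731). It was also lost without AsPC-1 mock replicate 1 (0.30, adjusted p = 0.157) and without PANC-1 mock replicate 2 (0.33, adjusted p = 0.120).

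The HOXD cluster (chromosome 2, plus strand) was not tested, since no HOXD gene passed the filter. HOXD1, HOXD3, HOXD4, HOXD8 and HOXD9 were listed at 0 in all 6 AsPC-1 libraries, and HOXD10, HOXD11 and HOXD12 each had a value above 0 in 1 AsPC-1 library, at most 0.0414 TPM. All 6 PANC-1 libraries were above 0 for 6 of the 8 genes. HOXD3 (chr2:176136612-176173102) measured 0.769 and 0.505 TPM in PANC-1 mock, 0.884 and 0.610 with TAp63 and 0.669 and 1.02 with deltaNp63. HOXD4 (chr2:176151550-176153226), whose window is printed above, measured 0.394 and 0.654 TPM in PANC-1 mock, 0.708 and 0.389 with TAp63 and 0.711 and 0.556 with deltaNp63. The other PANC-1 values ranged from 0 to 0.0566 TPM for HOXD9 to 0.145 to 0.452 for HOXD10. For 6 genes every PANC-1 library exceeded every AsPC-1 library, and HOXD9 and HOXD12 overlapped.

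Seen by paralog group, the most abundant member was the same in mock cells of both lines for 10 of 13 groups and differed in groups 3, 4 and 13. It was HOXA3 in AsPC-1 and HOXB3 in PANC-1 for group 3, and HOXC4 and HOXB4 for group 4. In group 9, led by HOXC9 in both, AsPC-1 mock summed to 17.1 TPM, spread over HOXA9, HOXB9 and HOXC9 at 5.35, 5.39 and 6.33. Over the AsPC-1 libraries, 89.8% of HOXA9 TPM was on transcripts without a defined coding sequence, against 0% for HOXB9 and 30.7% for HOXC9. PANC-1 mock summed to 84.4 TPM, almost all from HOXB9 and HOXC9, at 42.0 and 42.4, with HOXA9 at 0.0418. In group 10, HOXA10 gave 11.7 of the 34.0 TPM of AsPC-1 mock and 0.175 of the 75.1 TPM of PANC-1 mock, with HOXC10 the most abundant in both lines and HOXD10 at 0.426 TPM in PANC-1 mock. Group 13 was led by HOXA13 in AsPC-1 mock (1.43 of 2.76 TPM) and by HOXC13 in PANC-1 mock (21.4 of 25.8 TPM). All HOXA13 TPM was on a transcript without a defined coding sequence. Group 11 was the only one of the 13 with the larger sum in AsPC-1 mock, 15.7 against 12.1 TPM.

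Noncoding RNAs of the clusters are transcribed among the HOX genes, and several take part in the regulation of nearby members. Of 18 listed, 16 were tested and 13 passed between the mock cells, 7 higher and 6 lower in PANC-1, where 72.5% of all tested genes passed (44.6% higher, 27.9% lower). HOXA10-AS was lower in PANC-1 (-3.02 ± 0.15), with 4.93 to 9.002 TPM over the AsPC-1 libraries and 0 to 0.211 over the PANC-1 libraries. HOXC13-AS was higher by 2.98 ± 0.14, with 0.0303 to 0.298 against 7.35 to 9.17 TPM. HAGLR, which lies in the HOXD cluster, was listed at 0 in all AsPC-1 libraries and measured 6.23 to 8.55 TPM in PANC-1, well above any HOXD gene. The following 3 were chosen after their values were seen. HOTAIRM1 was higher in PANC-1 by 2.15 and HOTTIP was lower (-1.79), as was HOXA13 beside it. HOXB-AS3 went the other way from HOXB5 and HOXB6, whose exons it overlaps, with 40.6 to 58.7 TPM in AsPC-1 and 22.6 to 26.5 in PANC-1 (-0.80 ± 0.11, adjusted p = 0.000103). The libraries were stranded, per the labels' protocols, but whether reads were assigned with strand is not given in the sources used here. The exons of 15 of the 27 tested HOX genes overlap those of a gene on the other strand, HOXA10, HOXA11, HOXA13 and HOXC13 among them. Unless strand was used, reads of such partners cannot be told apart. The assignment is also uncertain where HOX genes share exon sequence on one strand, as HOXC4 and HOXC6 do (19.97% and 14.4% of their 31-base stretches occur in another gene's transcripts) and HOXB6 and HOXB3 (19.2% and 7.17%).

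**Figure D3:**
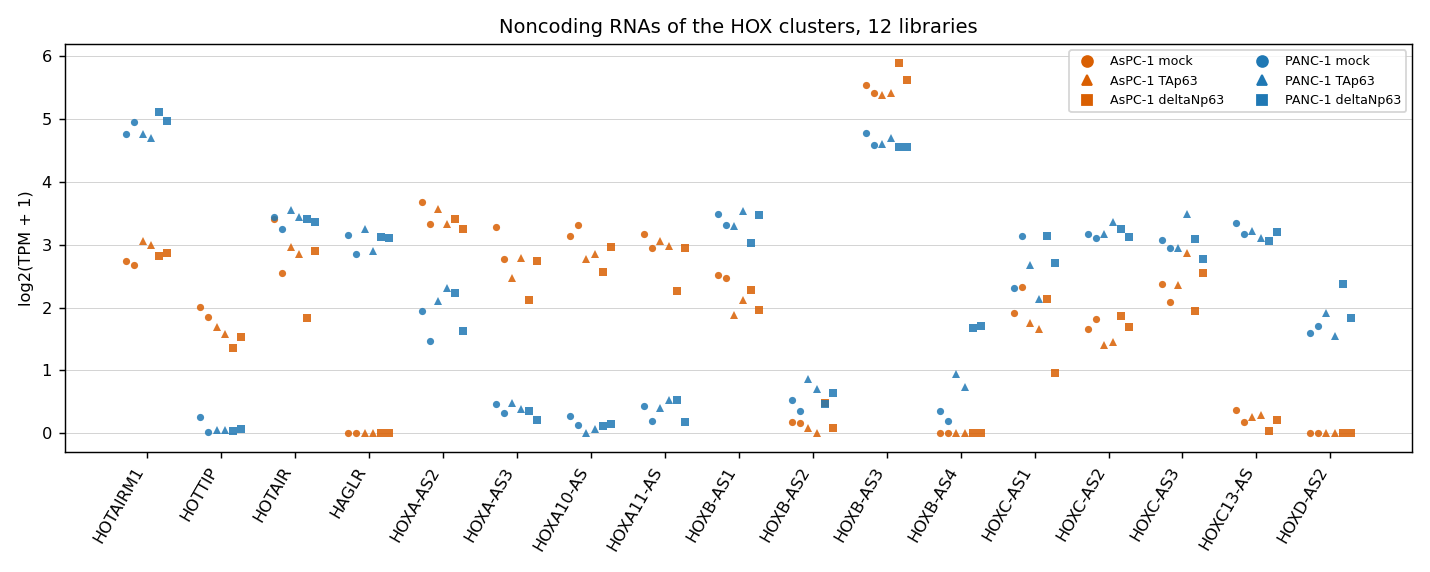
Level of 17 noncoding RNAs of the HOX clusters as log2(TPM + 1), with 1 point per library (orange AsPC-1, blue PANC-1; circles mock, triangles TAp63, squares deltaNp63). HAGLR and HOXD-AS2 are listed at 0 in AsPC-1, HOTTIP, HOXA10-AS and HOXA11-AS are low in PANC-1, and HOXB-AS3 is higher in AsPC-1.

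Genes for proteins that work with or on HOX clusters were called about as often as all tested genes (72.5%, with 44.6% higher and 27.9% lower). Among homeobox genes of the TALE class, which holds the PBX and MEIS cofactors and other genes such as IRX3, 8 of 11 tested passed (6 higher, 2 lower in PANC-1). MEIS3 was higher by 2.18 and IRX3, listed at 0 in AsPC-1, by 2.66 log2 units. Of 30 Polycomb genes, 20 passed (14 higher, 6 lower), led by PCGF6 (2.19), CBX2 (2.01) and PHC1 (1.92), all members of the repressive complex PRC1. Of 20 MLL and H3K27 demethylase genes, 14 passed (8 higher, 6 lower). KDM6B, which removes the Polycomb mark, was lower in PANC-1 at 5.85 to 10.7 against 46.3 to 69.5 TPM (-2.86 ± 0.17). MEN1 was higher (1.38) and ASH2L lower (-1.02). In the retinoic acid pathway 10 of 12 passed, 2 higher and 8 lower, a small list against the same background. ALDH1A3, which makes retinoic acid, was lower in PANC-1 at 37.4 to 45.9 against 667 to 910.4 TPM (-4.20 ± 0.10), as was STRA6, a retinol transporter (-3.61). CRABP2, which carries retinoic acid in the cell, was higher at 246 to 334 against 15.7 to 21.5 TPM (3.77 ± 0.14). The median over the retinoic acid list was -0.60 and that over all genes 0.24.

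Genes just outside the clusters did not share one direction. Of 19 tested neighbours, 16 passed between the mock cells, 10 higher and 6 lower in PANC-1, against the 72.5% of all tested genes (44.6% higher, 27.9% lower). SNX10, on the HOXA side, was higher (4.79) and HIBADH, on its other side, lower (-2.02), while ATP5MC1 near HOXB was higher (2.36). Of the ParaHox and CDX genes, relatives of the HOX genes, PDX1, a pancreatic regulator, was lower in PANC-1 (-1.06 ± 0.18) and CDX2 did not pass (-0.32, adjusted p = 0.375). EVX1 and EVX2, which flank HOXA and HOXD, stayed at or below 0.102 TPM.

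In AsPC-1 the summed levels of HOXA, HOXB and HOXC were lower with either construct than in mock. The summed HOX level was 266 ± 12.7 TPM (SD, n = 2) in mock, 203 ± 9.78 with TAp63 and 194 ± 5.60 with deltaNp63, or 76.2% and 73.2% of mock. HOXA was at 69.7% and 67.5% of mock, HOXB at 77.8% and 75.1%, and HOXC at 77.3% and 72.7%, and in each cluster the 2 mock libraries lay above the 4 others. No test was made of the sums. In PANC-1 the sums with TAp63 and deltaNp63 were 101% and 99.1% of mock.

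**Figure D4:**
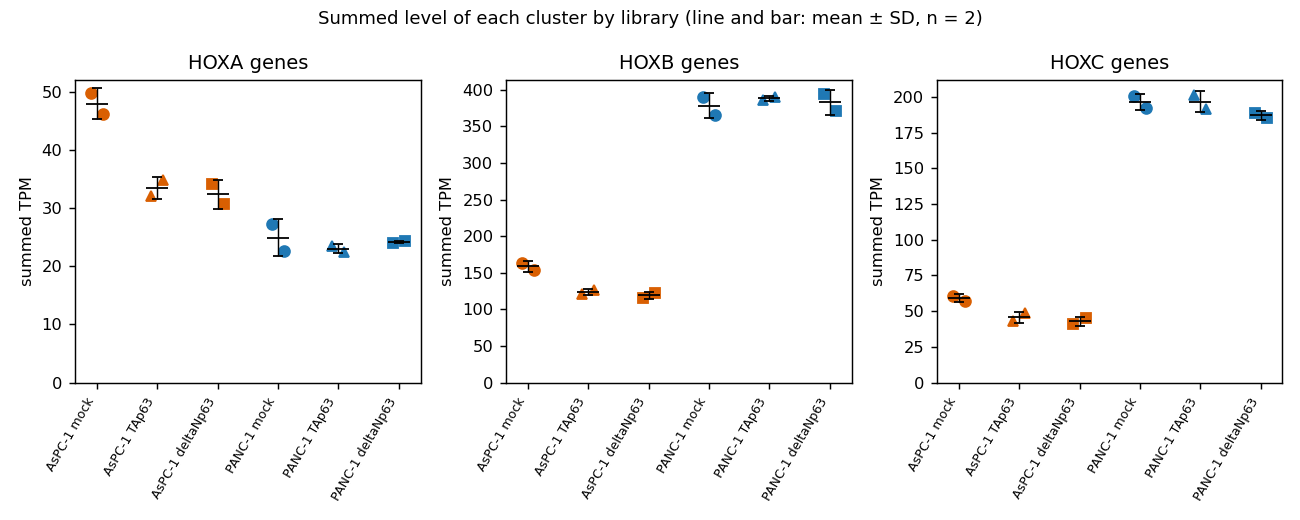
Summed TPM of the HOXA, HOXB and HOXC genes in each library (points) with mean and SD (n = 2). AsPC-1 mock lies above the AsPC-1 libraries with TAp63 and deltaNp63 in each cluster, from 46.1 to 49.8 against 30.6 to 34.7 TPM for HOXA, while PANC-1 groups overlap mock except for HOXC with deltaNp63, at 184.9 and 189 TPM below 192 and 200.5 in mock.

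Gene by gene, deltaNp63 in AsPC-1 gave 7 calls among 27, all lower than mock, against 6.51% of all tested genes called lower and 7.14% in either direction. They were HOXA10, HOXA11, HOXB3, HOXB5, HOXB6, HOXB8 and HOXC11. HOXA11 fell by 0.80 ± 0.15 log2 units (SE, adjusted p = 0.0237), HOXB3 by 0.72 ± 0.14 (adjusted p = 0.0270) and HOXA10 by 0.65 ± 0.16 (adjusted p = 0.0443). HOXA10 and HOXA11 are given above library by library. HOXB3 measured 14.99 and 14.2 TPM in AsPC-1 mock, 8.76 and 11.5 with TAp63 and 8.11 and 8.88 with deltaNp63. HOXB8, a gene of myeloid progenitors, measured 14.9 and 14.3 TPM in AsPC-1 mock, 9.36 and 11.2 with TAp63 and 9.02 and 9.41 with deltaNp63, and fell by 0.62 ± 0.10 with deltaNp63 (adjusted p = 0.0135). HOXB6 measured 39.8 and 37.6 TPM in AsPC-1 mock, 28.2 and 30.8 with TAp63 and 24.9 and 26.7 with deltaNp63, and fell by 0.56 ± 0.10 (adjusted p = 0.0203). In these 3 genes both deltaNp63 libraries were below both mock libraries, and so were both TAp63 libraries. HOXB5 fell by 0.49 ± 0.09 (adjusted p = 0.0200). HOXC11 measured 9.21 and 9.47 TPM in AsPC-1 mock, 5.62 and 6.72 with TAp63 and 6.33 and 6.18 with deltaNp63, against 11.1 and 10.9 TPM in PANC-1 mock, 10.4 and 10.1 with TAp63 and 9.87 and 10.4 with deltaNp63, and fell by 0.51 ± 0.10 with deltaNp63 (adjusted p = 0.0313).

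TAp63 in AsPC-1 gave 0 calls among the 27 (limma; background 0.637%, with 0.609% lower), with 15 at an unadjusted p under 0.05, all lower, as were 12.8% of all tested genes (15.1% in either direction). The smallest adjusted p were 0.0665 for HOXC11 (-0.53 ± 0.10) and 0.0786 for HOXB8 (-0.48 ± 0.10), and HOXA9 had the largest difference, -0.85 ± 0.20 with adjusted p = 0.115. With either construct all 27 differences from mock were below 0, against 65.6% (TAp63) and 67.1% (deltaNp63) of all tested genes, but 26 and 24 of 27 were after quantile normalization and 25 and 20 after median centring. Their median was -0.36 with TAp63 and -0.39 with deltaNp63, and that of all genes -0.08 and -0.12. The 2 libraries of a construct lay below the 2 mock libraries for 21 genes with TAp63 (35.4% of all tested genes) and for 23 with deltaNp63 (41.1%). These comparisons share the mock libraries. Between TAp63 and deltaNp63 no HOX gene passed (limma, 0 calls of 27, 0 at an unadjusted p under 0.05, background 0.0203%), with 95% intervals between -0.76 and 0.64.

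The 7 calls depend on scaling, on single libraries and on the other libraries in the fit. Fitted on the AsPC-1 libraries alone, 0 of 27 passed and 8 of the 14767 tested genes did. Fitted on the compared groups alone, 0 of 27 and 0 of all tested genes passed. After quantile normalization, which set the median change of all genes to 0, 0 of 27 passed and the HOX median was -0.22. The 7 genes lay 0.37 to 0.68 log2 units below the median change of all genes. The number of calls fell without AsPC-1 mock replicate 1, mock replicate 2 or deltaNp63 replicate 1, and rose without deltaNp63 replicate 2. These fits leave 1 library in a group. The HOX median stayed between -0.37 and -0.41 in them.

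**Figure D5:**
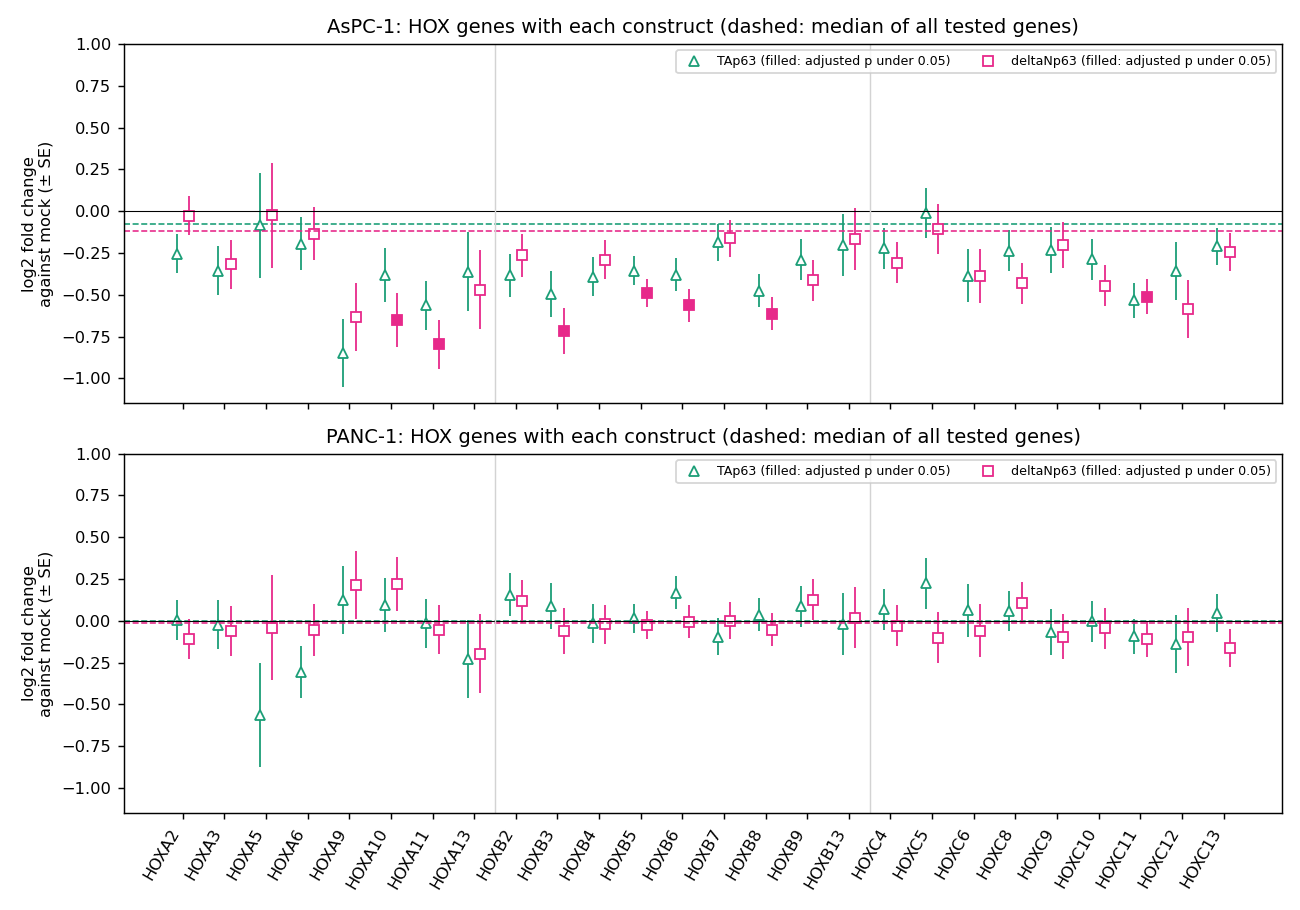
Log2 fold change against mock with its SE for 26 tested HOX genes in AsPC-1 (top) and PANC-1 (bottom), with TAp63 as triangles and deltaNp63 as squares; filled symbols passed an adjusted p of 0.05 and dashed lines are the medians of all tested genes. All AsPC-1 points are below 0 with 7 filled (26 and 24 of all 27 tested genes are below 0 after quantile normalization, 25 and 20 after median centring), and PANC-1 points lie on both sides of 0 with none filled.

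Some low-level members in AsPC-1 stood further below mock in proportion without passing. HOXC12 and HOXC13 were at 30.7% and 34.7% with deltaNp63 (adjusted p = 0.0643 and 0.182). HOXB7, the most abundant, was at 87.3% with TAp63 and 88.7% with deltaNp63 (limma adjusted p = 0.463 and 0.365). On log2(TPM + 1), which flattens low values, HOXA2, HOXA5 and HOXC5 lay within 0.11 log2 units of mock with deltaNp63. By mean TPM they were at 96.4%, 82.6% and 78.6% of mock.

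No HOX gene passed in PANC-1 with either construct (limma, 0 of 27 each, 0 at an unadjusted p under 0.05; background 0.00677% with TAp63 and 0.0406% with deltaNp63). The median differences were 0.02 and -0.05, and 12 and 19 of the 27 were below 0. With deltaNp63 the 95% intervals of the 18 HOXB and HOXC genes lay between -0.48 and 0.43, so larger changes fall outside them. Those of the HOXA genes lay between -0.74 and 0.67. With TAp63 the intervals lay between -0.43 and 0.45 for HOXB and between -0.53 and 0.56 for HOXC. The AsPC-1 medians of -0.36 with TAp63 and -0.39 with deltaNp63 lie within these ranges, which therefore do not exclude a change of that size in PANC-1. HOXA5 had the widest interval with TAp63, -1.26 to 0.14. Between TAp63 and deltaNp63 in PANC-1, limma also gave 0 calls, 0 at an unadjusted p under 0.05 (background 0.0271%), with 95% intervals between -1.22 and 0.66.

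Whether the construct effect differed between the lines was tested directly. The difference (PANC-1 minus AsPC-1) was above 0 for 25 of 27 HOX genes with each construct, with medians of 0.33 and 0.38 against 0.09 and 0.11 for all genes. None passed an adjusted p of 0.05 (0 of 27 each, background 0.0745% and 0.582%), and 10 and 12 did so unadjusted, against 10.4% and 16.5% of all tested genes. The smallest adjusted p were 0.291 for TAp63 and 0.162 for deltaNp63. That calls were made in AsPC-1 and none in PANC-1 therefore does not show a difference between the lines. Some HOX genes did pass for deltaNp63 without AsPC-1 deltaNp63 replicate 2. That fit leaves 1 library in the group, so its count is not used here.

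Few genes of the other lists passed with a construct. With deltaNp63 in AsPC-1, 3 of 30 Polycomb genes were lower (background 6.51%), CBX6 (-0.79) and PCGF6 (-0.59) among them, as were MEN1 (-0.75 ± 0.15, adjusted p = 0.0295), the MLL cofactor menin, among 20 MLL genes, and 1 of 12 retinoic acid genes. Of the neighbours, CALCOCO1, CBX1 and HNRNPA3 were lower (-0.66, -0.53 and -0.39). All 8 calls in these lists were lost in the fit on the AsPC-1 libraries alone, after quantile normalization, and without AsPC-1 mock replicate 1, mock replicate 2 or deltaNp63 replicate 1. In the same comparison limma gave 0 calls among the TALE genes and 0 among the noncoding RNAs. In PANC-1 1 of these genes passed: HOXB-AS4 rose with deltaNp63 by 1.42 ± 0.14 (adjusted p = 0.0103), with 0.278 and 0.142 TPM in PANC-1 mock, 0.929 and 0.660 with TAp63 and 2.21 and 2.25 with deltaNp63. That call was lost in the limma fit on the PANC-1 libraries alone (adjusted p = 0.211). It was also lost without PANC-1 mock replicate 2, deltaNp63 replicate 1 or deltaNp63 replicate 2. Its span overlaps that of HOXB7, which measured 124 ± 10.3 TPM (SD, n = 2) in PANC-1 mock and 124 ± 9.35 with deltaNp63. The nearby HOXB9 measured 42.0 ± 2.39 TPM (SD, n = 2) in PANC-1 mock and 46.1 ± 5.51 with deltaNp63.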

How the data were processed

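RNA of 12 libraries, 2 biological replicates in each of 6 groups of cell line and construct, was made into stranded mRNA libraries, per the labels' protocols. The authors deposited TPM values for 153329 transcripts, and each column sums to 1000000. The quantifier, genome build and annotation are not given in the sources used here. TPM keeps no read depth, so the precision of single values is not given directly. For genes with 1 transcript in the table, low TPM times length in kb fell in steps of 0.0363 to 0.0452. Length was reduced by an assumed fragment of 200 bases, and the step was the most frequent low value. Per library, 67.1% to 73.9% of these values lay within 0.1 of a whole number of steps, against 20% if spread evenly. The smallest TPM values are therefore coarse. Transcript IDs were matched to GENCODE version 44 (hg38): 139819 transcripts (91.2%), carrying 89.6% to 90.5% of TPM, were summed to 39099 genes. Values were analysed as log2(TPM + 1), so a fold change of a low gene is understated. The 14767 genes that reached 1 TPM in 2 or more libraries were fitted with limma 3.58.1 (R 4.3.3; data.table, version 1.17.8) in one model of 6 groups, with an intensity trend and 6 residual degrees of freedom. The test was two-sided, with Benjamini-Hochberg adjustment over all tested genes of a contrast and a threshold of 0.05. Every adjusted p is from that model unless another setting is named with it. Each p-value sets a difference against the spread between replicate libraries, pooled over the groups in the fit.

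HOX genes were taken by symbol, and tested members are given library by library. Some genes counted in the totals are not reported here by name. The other lists were the TALE class, Polycomb, MLL and H3K27 demethylases, retinoic acid pathway, ParaHox and CDX, EVX, noncoding RNAs and neighbours. Up to 3 genes per list and contrast were named, those that passed without overlap between groups and changed most. Members and lists were chosen with earlier results of these data known. For HOXA3, HOXA13 and HOXD3 the canonical transcript was not among the matched rows, so their levels come from other transcripts. Common genes such as GAPDH and ACTB were above 0 in all libraries. Promoter windows are from RefSeq (GRCh38.p14), and no window was matched for genes including HOXA5, HOXB2 to HOXB9, HOXB13, HOXC6, HOXC8 to HOXC13 and HOXD9.

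The model was tested on simulated data for PANC-1 mock against AsPC-1 mock over 14767 genes. Recovered were 74 of 100 genes changed by 1 log2 unit and 97 of 100 changed by 2, with 12 false calls. No other genes were changed, while 72.5% of the tested genes passed in the real comparison. These rates therefore do not describe that comparison, and the construct comparisons were not simulated. Alternatives were another pseudocount (0.1), no filter, a mean of at least 5 TPM, quantile normalization, no trend, only the groups compared, protein-coding transcripts only, a replicate block and leaving out each replicate. Median centring and a fit on 1 cell line were chosen after seeing the data. Tables were made with Python 3.11.15, pandas 2.3.3 and numpy 2.4.6, and plots with matplotlib 3.10.9.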

Additional observations from a re-analysis of the deposited data

Results flagged for a closer look

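HOXB-AS4, a noncoding RNA of the HOXB cluster, passed for the cell-line difference in the deltaNp63 effect, at 1.42 ± 0.19 log2 units (SE, interaction term, limma adjusted p = 0.01004). It was listed at 0 in all 6 AsPC-1 libraries, so the difference equals the rise in PANC-1 given above. Those libraries also add no spread to the shared estimate behind the SE. In limma on the PANC-1 libraries alone the rise had an adjusted p of 0.211, so a difference in response is not established. With a pseudocount of 0.1 the difference was 2.95. The call for the interaction term was also lost when either AsPC-1 mock replicate was left out.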

How the results depend on the processing

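Most counts kept within 1.5 times of the reported value, and the 7 HOX genes called with deltaNp63 in AsPC-1 did not. Their count was 0 after quantile normalization, 0 with only the groups compared, 0 with only the libraries of the cell line, 1 after median centring, 3 with no filter on low values and 11 over protein-coding transcripts. The shares of all tested genes called after median centring, with no filter and over protein-coding transcripts are not given here. Leaving out 1 replicate also changed the number of calls with deltaNp63 in AsPC-1. It did so between TAp63 and deltaNp63 in AsPC-1 and for the cell-line difference in the deltaNp63 effect as well. Those fits leave 1 library in a group, so their counts are not given. With a mean of at least 5 TPM only 15 HOX genes were tested, and 13, 15 and 15 passed between the lines in mock, TAp63 and deltaNp63. Quantile normalization moved the median of all genes between the mock lines from 0.24 to 0.082, and that with deltaNp63 in AsPC-1 from -0.12 to 0.

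Single genes changed sign as follows. With a pseudocount of 0.1, HOXC5 was 0.0031 with TAp63 and HOXA5 0.068 with deltaNp63 in AsPC-1. After quantile normalization HOXA2 was -0.074 between the mock lines, HOXC5 0.067 with TAp63, and HOXA2 0.099, HOXA5 0.041 and HOXC9 0.034 with deltaNp63. Over protein-coding transcripts HOXA5 was 0.034 with deltaNp63. After median centring HOXA5 was 0.046 and HOXC5 0.12 with TAp63, and HOXA2 0.18, HOXA5 0.18, HOXA6 0.073, HOXB7 0.045, HOXB13 0.041, HOXC5 0.10 and HOXC9 0.0050 with deltaNp63. Leaving out 1 AsPC-1 replicate gave -0.26 to 0.091 for HOXA5 and -0.17 to 0.15 for HOXC5 with TAp63. With deltaNp63 it gave -0.073 to 0.019 for HOXA2, -0.20 to 0.15 for HOXA5, -0.41 to 0.077 for HOXB13 and -0.27 to 0.055 for HOXC5. The cause was not tested. None of these genes was called in the comparison concerned.

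Replicate numbers only name the libraries, since same-numbered libraries did not all deviate together (correlations from -0.09 to 0.29). With a replicate block, 24 HOX genes passed between the mock lines and 7 with deltaNp63 in AsPC-1, and HOXB-AS4 in PANC-1 had an adjusted p of 0.055. That gene also missed 0.05 with only the groups compared (0.427) and with only the libraries of its line (0.211).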
